A study of Homo sapiens with 3 samples.

Results

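Of the 24916 genes on the arrays, 8 were followed here because of their place in serine synthesis and in the response to amino acid shortage. They were taken by their Ensembl identifiers, all 8 were found in the deposited table, and the rule that picks them uses no measured value. The symbols used below were set beside the identifiers in that rule, since the table holds identifiers only. RNA came from a single group, RRAS2-deficient MDA-MB-231-Luc cells, measured on 3 Affymetrix expression arrays that the labels number as biological replicates 1 to 3. MDA-MB-231 is a long-established line from a human breast cancer, RRAS2 encodes the RAS-family GTPase R-Ras2, and the cells were a lentivirus-transduced pool carrying the short hairpin RNA TRCN0000047025, kept in exponential growth. Cells with a control hairpin are part of the study's design but not analysed here, so no effect of silencing RRAS2 was computed for these genes. The level of RRAS2 itself and of markers of the line was not computed because no table used here pairs the other row identifiers with symbols. All 3 arrays came from 1 pool made with 1 hairpin, and the labels do not say whether the replicates were separate cultures or separate RNA preparations of one culture.

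Cells make serine from the glycolytic intermediate 3-phosphoglycerate in a chain of reactions run by PHGDH, PSAT1 and PSPH, and the mitochondrial enzyme SHMT2 splits serine into glycine and a one-carbon unit carried by folate. When amino acids run short, the kinase GCN2 phosphorylates the translation factor eIF2alpha, most protein synthesis slows, and translation of the transcription factor ATF4 goes up. ATF4 then acts on genes that include ASNS, DDIT3, TRIB3 and those of serine synthesis. ATF4 is controlled largely at translation, so its mRNA is not a measure of its protein.

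ATF4 binds DNA together with C/EBP proteins at a composite element whose core was searched as TGATGNAAN, on both strands, in RefSeq promoter windows (GRCh38.p14) reaching from 250 bases before to 50 after a gene's start. Windows were found for 6 of the 8 genes, 11 windows in all, counting several starts of a gene. PSPH and SHMT2 were not matched. The core stood in 1 of these 6 genes, ASNS, at bases -68 to -60 before the start, in 1 of its 2 windows. In all, 4.45% of 27305 genes held it in at least 1 window, as did 3.61% of 35116 windows. The fixed form TGATGCAAT was in 0 of the 6 genes, against 0.293% of all genes. No match says only that these letters are not within the window. A second search, added after the first had been read, took GTTACA, the second element of the nutrient-sensing unit known from the ASNS promoter, the endoplasmic reticulum stress element ERSE, and CCAAT, the box bound by NF-Y, again on both strands. None of the matches shown overlaps another. GTTACA was present in ASNS at -48 to -43 and in TRIB3, where 3 overlapping windows hold the same site, and 8.07% of all genes held it. An exact match to the consensus of the stress element was in 0 of the 6 genes, against 0.0916% of all genes. Forms that differ from this consensus by 1 letter were not counted. The DDIT3 stretch below holds such forms on both strands. The form that starts at the first capitals there differs in its last letter. Another starts at the second capitals, is read from the other strand and overlaps the first. It differs in the first letter of its closing part, which is CCACG in the consensus. The count of 0 therefore does not say that DDIT3 lacks a stress element, and whether either form acts was not tested. CCAAT stood in PHGDH, PSAT1 and DDIT3, 3 of the 6 genes, against 39.7% of all genes. The single window of PSAT1 held 3 copies, a number that 3.26% of all windows reached or exceeded. The stretches below are shown because they hold these matches, and each ends before the gene's start. Capitals mark the core and then GTTACA in ASNS, and CCAAT, or ATTGG where it is read from the other strand, in the others.
ASNS (chr7:97872429-97872498, minus strand): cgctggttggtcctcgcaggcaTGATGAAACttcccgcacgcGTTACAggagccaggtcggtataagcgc
PHGDH (chr1:119711824-119711903, plus strand): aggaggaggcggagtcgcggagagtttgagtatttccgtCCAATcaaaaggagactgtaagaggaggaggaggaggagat
PSAT1 (chr9:78297005-78297094, plus strand): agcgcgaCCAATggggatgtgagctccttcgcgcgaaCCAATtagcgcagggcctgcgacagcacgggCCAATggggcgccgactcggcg
DDIT3 (chr12:57520565-57520634, minus strand): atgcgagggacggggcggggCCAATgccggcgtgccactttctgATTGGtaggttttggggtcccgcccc

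All 8 genes gave bright signals on all arrays of the knockdown cells, and each ranged over at most 0.311 log2 units between replicates. Their median SD was 0.105 log2 units, against 0.086 for all genes, so they were not unusually steady. Every one of the 8 lay above the array's median on all 3 arrays, which 48.6% of all genes did. Every one also lay above the upper quartile on all 3, which 23.9% of all genes did. The medians of all genes were 6.84, 6.81 and 6.80 and the upper quartiles 9.04, 9.05 and 9.05 in replicates 1, 2 and 3. Values are RMA values read as log2, a scale the table does not name, and every fold below takes them so. The median divides brighter from dimmer signals and is not a measured background. Because each gene is read by its own probes, a brighter signal need not mean more transcript, and the 8 genes are not ranked. With 3 arrays, precision is limited throughout, and in RNA from a whole pool fewer expressing cells and less RNA per cell cannot be told apart.

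**Figure D1:**
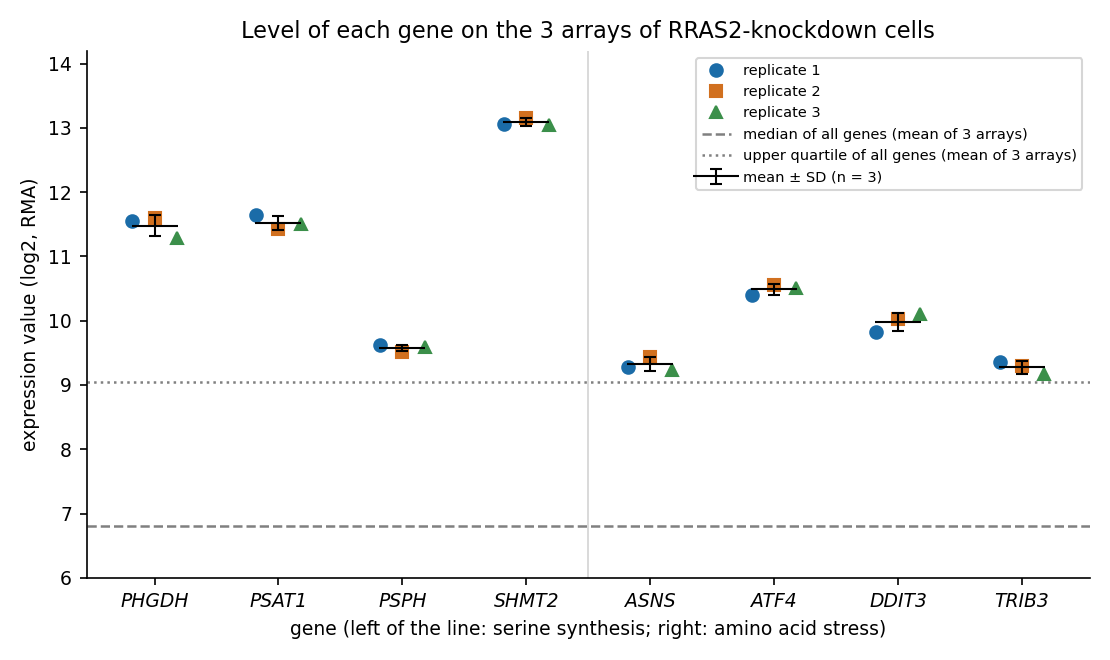
Expression value (log2, RMA) of the 8 genes on replicates 1 to 3 of the RRAS2-knockdown cells, as points, with the mean and SD (n = 3) as black bars; the dashed and dotted lines are the median and upper quartile of all genes, averaged over the arrays. All 24 points lie above the dotted line, and the points of each gene lie within 0.311 log2 units of one another.

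Among the enzymes of serine synthesis, PHGDH showed the widest spread. PHGDH (ENSG00000092621), 3-phosphoglycerate dehydrogenase, which takes the first step out of glycolysis, was at 11.55, 11.60 and 11.29 log2 units in replicates 1, 2 and 3. Its mean was 11.48 ± 0.17 (SD, n = 3), and replicate 3 was the low array while replicates 1 and 2 lay close together. The range of 0.311 units, a 1.24-fold difference, was reached or exceeded by 15.4% of all genes, and by 7.38% of the 2492 genes in the same band of mean level (10 bands of equal size). On each array, between 94.8% and 96.1% of all genes had a lower signal. As background, MDA-MB-231 is often used as a line with little PHGDH protein. An array value gives neither protein nor an absolute number of transcripts, and no other line was measured in these arrays.

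PSAT1 (ENSG00000135069), the aminotransferase of the next step, was at 11.64, 11.42 and 11.50 in replicates 1, 2 and 3, with a mean of 11.52 ± 0.11 (SD, n = 3). Here replicate 1 was the high array, and replicate 3, the low one for PHGDH, fell between the others. The neighbouring steps did not share an order of arrays: in replicate 3 against replicate 2, PHGDH was lower by 0.31 units (difference -0.31) while PSAT1 was higher by 0.08 units. In that pair, 9.81% of all genes differed in either direction by at least as much as PHGDH, and 61.8% by at least as much as PSAT1. PSPH (ENSG00000146733), the phosphatase that releases serine, was at 9.62, 9.52 and 9.59 in the same order of replicates. Its SD of 0.050 log2 units around a mean of 9.58 was the smallest of the 8, and 22.3% of the 2491 genes in its band of level had a smaller one. PSPH and PSAT1 shared the order of arrays, with replicate 1 highest and replicate 2 lowest, although after median centring replicate 3 became the highest for PSPH.

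SHMT2 (ENSG00000182199), which passes the carbon of serine to folate in mitochondria, was at 13.06, 13.16 and 13.05 in replicates 1, 2 and 3. Its mean was 13.09 ± 0.06 (SD, n = 3), replicate 2 was the high array, and replicates 1 and 3 differed by only -0.01 units (replicate 3 minus 1). About 99.6% of all genes had a lower signal on each array. Which of replicates 1 and 3 was lower turned round after quantile normalisation and after median centring.

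The genes of the amino acid stress response were likewise bright, with levels from 9.16 to 10.56 log2 units. ATF4 (ENSG00000128272), the transcription factor at the head of the response, was at 10.40, 10.56 and 10.51 in replicates 1, 2 and 3 (mean 10.49 ± 0.08, SD, n = 3). Replicate 1 was the low array. ASNS (ENSG00000070669), asparagine synthetase, whose promoter carries the core element printed above, was at 9.29, 9.44 and 9.23 in the same order (mean 9.32 ± 0.11, SD, n = 3). ASNS was highest in replicate 2, as ATF4 was, but lowest in replicate 3, where ATF4 was not low.

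DDIT3 and TRIB3, which are known to act downstream of ATF4, differed in which array was high: replicate 1 was lowest for DDIT3 and highest for TRIB3, and replicate 3 the reverse. DDIT3 (ENSG00000175197) encodes CHOP, a transcription factor linked to cell death under lasting stress. It was at 9.83, 10.02 and 10.11 log2 units in replicates 1, 2 and 3, a mean of 9.98 ± 0.14 (SD, n = 3), with replicate 1 apart from the others on the low side. Its range of 0.278 units, or 1.21-fold, was reached or exceeded by 20.4% of all genes. TRIB3 (ENSG00000101255), a pseudokinase that restrains AKT and ATF4 activity, was at 9.36, 9.30 and 9.16, a mean of 9.27 ± 0.10 (SD, n = 3). Replicate 1 was its high array and replicate 3 its low one. In replicate 3 against replicate 1, DDIT3 was thus higher by 0.28 units while TRIB3 was lower (difference -0.20).

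**Figure D2:**
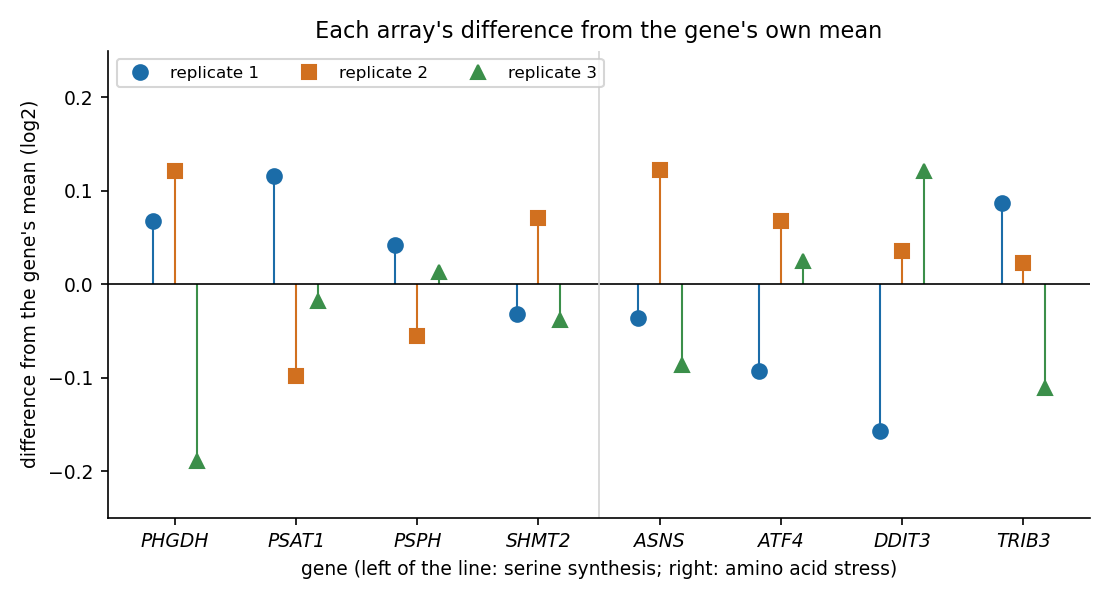
Difference of each array from the gene's own mean, in log2 units, for the 8 genes; each point is 1 array and lines run to 0. Replicate 3 lies at -0.19 for PHGDH and at 0.12 for DDIT3, and no replicate is high or low for all 8 genes.

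On the fold scale the spread of the 8 genes between replicates was small. Over the 8 genes the median SD was 0.105 log2 units, a factor of 1.08, against 0.086 for all genes, and it was 0.069 without replicate 1. It was 0.085 over the 4 serine synthesis genes and 0.105 over the 4 stress genes. Of the 8 genes, 0 ranged over more than 0.5 units (1.41-fold), against 3.52% of all genes, and 1, PHGDH, ranged over more than 0.3 units, against 16.8% of all genes. That limit lay close to both PHGDH, which ranged over 0.285 units after quantile normalisation, and DDIT3, which ranged over 0.314 after median centring. Within its own band of mean level, the SD of PHGDH was larger than that of 92.9% of genes and the SD of DDIT3 larger than that of 81.7%. For PSAT1 that share was 76.5%, for ASNS 59.0%, for TRIB3 54.6%, for ATF4 48.5% and for SHMT2 43.3%. No test was made, because 3 arrays of a single group offer no contrast.

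**Figure D3:**
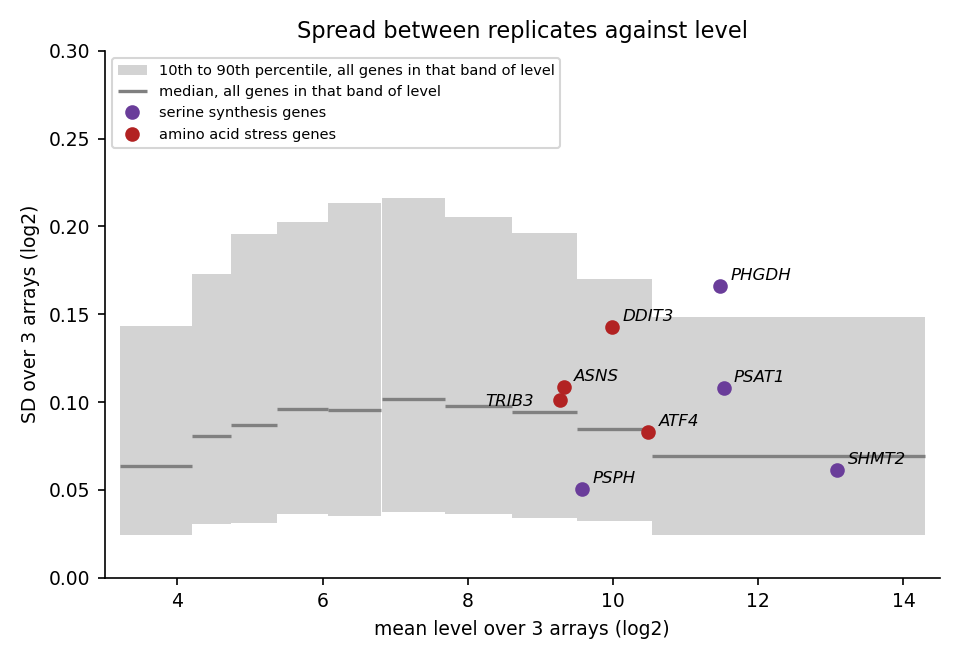
SD over the 3 arrays against mean level, both in log2 units; grey boxes span the 10th to 90th percentile and grey lines mark the median of all genes in each of 10 bands of mean level, and the coloured points are the 8 genes. PHGDH, at an SD of 0.166, lies above its grey box, which ends at 0.148, and the other 7 genes lie within theirs.

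The genes did not move as a block between replicates. Replicate 2 was higher than replicate 1 for 5 of the 8 genes, against 48.1% of all genes, with differences from -0.21 for PSAT1 to 0.19 for DDIT3. After median centring this count was again 5 of the 8, against 57.9% of all genes. Replicate 3 was lower than replicate 1 for 6 of the 8, against 52.5% of all genes, and these included the 4 serine synthesis genes, with differences from -0.26 for PHGDH to -0.01 for SHMT2. After median centring the count was 4 of the 8, against 42.6% of all genes, with 2 of the 4 serine synthesis genes. After quantile normalisation it was 5 of the 8, against 50.4% of all genes, with 3 of the 4. Replicate 3 was lower than replicate 2 for 5 of the 8, against 50.2% of all genes. The median differences over the 8 genes were 0.08, -0.04 and -0.08 units for replicate 2 minus 1, 3 minus 1 and 3 minus 2, beside -0.01, -0.01 and -0.0007 over all genes. Across all genes, 41.7% had replicate 3 as the array farthest from the middle one of the 3 values, and among the 8 it was farthest for 2, PHGDH and TRIB3. Replicate 1 was farthest for PSAT1, ATF4 and DDIT3, against 27% of all genes, and replicate 2 for PSPH, SHMT2 and ASNS, against 31.3%.

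**Figure D4:**
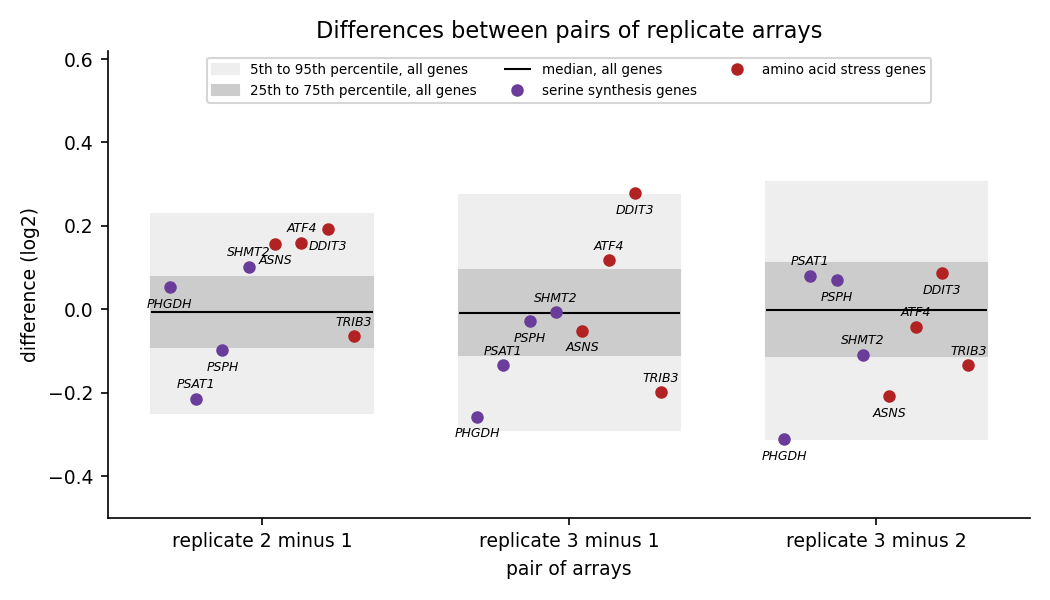
Differences between each pair of arrays in log2 units, for the 8 genes (points) and all genes (light box, 5th to 95th percentile; dark box, 25th to 75th; line, median). Points fall on both sides of 0 in each pair; DDIT3 in replicate 3 minus 1, at 0.28, lies just above the light box, which ends at 0.275.

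The genes differ in whether near copies exist that probes could also detect. By name, the RefSeq gene table lists 5 pseudogenes of ASNS, 4 of PSAT1, 4 of ATF4 and 1 of PSPH, and 0 under the names of PHGDH, SHMT2, DDIT3 and TRIB3. Whether the probes for ASNS, PSAT1, ATF4 and PSPH separate these genes from the copies was not tested, and their levels are uncertain to that extent.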

How the data were processed

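Total RNA was extracted with Trizol and labelled with biotin for Affymetrix arrays, per the labels' protocols. The authors deposited 1 table of values per gene and array, made with RMA and the affy package per the submitters' processing notes. The scale of the deposited values was taken to be log2, as RMA gives. Array model, probe definition and genome build: not given in the sources used here. RMA draws arrays towards a common distribution, so a shift in total RNA cannot be seen.

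The genes and lists were chosen with earlier results of these data known. All 8 genes are named. The level, SD and range over 3 arrays were computed for all 24916 genes and read for the 8, and SDs were set beside genes in the same of 10 bands of mean level. The range, farthest-array and pair-difference steps were tested on simulated arrays, with a planted shift larger than any range of the 8 genes. The bands, the normalisations and the promoter search were not tested in this way. The reference table (59792 genes) held an Ensembl identifier for 0, so the planned list of further pathway genes, line markers and RRAS2 were not used. Promoter sequences are RefSeq's. Alternatives were quantile, median-centring and cyclic loess normalisation, other limits and leaving out each replicate. Python 3.11.15, pandas 2.3.3, R 4.3.3 and limma 3.58.1 were used.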

Additional observations from a re-analysis of the deposited data

How the results depend on the processing

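Renormalising by quantiles, median centring or cyclic loess moved no gene's mean by more than 0.0037 log2 units. The lowest and the highest array stayed the same in 21 of 24 combinations of gene and normalisation; the exceptions were SHMT2 under quantile normalisation and under centring, and PSPH under centring. The count of genes with a range over 0.5 units was 0 under all 3 normalisations. With the limit at 0.3 it was 1 for the values as deposited. At 0.3 the genes differed by setting: PHGDH ranged over 0.285 units after quantile normalisation, 0.305 after centring and 0.305 after cyclic loess. DDIT3 ranged over 0.253, 0.314 and 0.262 units in the same order of settings. The median SD of 0.105 became 0.069 without replicate 1, 0.089 without replicate 2 and 0.092 without replicate 3; fewer arrays tend to give smaller SDs. The median difference of replicate 2 minus 1, 0.08, was 0.047 after quantile normalisation and 0.108 after centring, and that of replicate 3 minus 1, -0.04, was -0.060 and -0.0041 after these. For replicate 3 minus 2 it lay between -0.076 and -0.061 in all settings. Counts of genes higher or lower in a pair of arrays were recomputed after the data were seen. Under these normalisations they changed only for replicate 3 lower than 1. That count was 6 as deposited, 6 after cyclic loess, 5 after quantile normalisation and 4 after centring. The shares of all genes beside it were 52.5%, 49.9%, 50.4% and 42.6%. For replicate 2 higher than 1 the count stayed at 5. All 8 genes passed the upper quartile on all 3 arrays, so the looser limits (the mean, 2 of 3 arrays) and leaving out a replicate could not change that count, nor could leaving out a replicate raise the count of 0. The limit for the list of further pathway genes was not run, because the rows have no symbols. No paired analysis was possible because all arrays belong to 1 group.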
